A study of Saccharomyces cerevisiae with 3 samples.

Results

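The 10 genes described here serve phosphate acquisition and polyphosphate synthesis in baker's yeast, Saccharomyces cerevisiae. They are PHO5, PHO8, PHO81, PHO84, PHO89, SPL2, VTC1, VTC2, VTC3 and VTC4. They were chosen by gene symbol from the annotation of the spotted array, with no rule on their values. Earlier results of these data were known when they were chosen. All 10 were found, each with 2 spots, among 5539 genes with a symbol, and no filter on low values was applied. The study hybridised 2 RNAs to each of 3 arrays: total RNA of a mutant with YAP1 deleted, in Cy3, and total RNA of wild-type cells, in Cy5. Both strains had spent 1 h in 0.2 mM arsenite, As(III), so the arrays compare the strains under arsenite and hold no unstressed cells. The sources used here give no strain background and name no separate cultures behind the replicate numbers. Each p-value below therefore rests on array-to-array spread, of the gene and pooled over all genes, and that spread may be technical.

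Yeast senses phosphate through the PHO pathway. When phosphate is plentiful, the cyclin-dependent kinase Pho85 with its cyclin Pho80 phosphorylates the transcription factor Pho4, which then leaves the nucleus. When phosphate is scarce, the inhibitor Pho81 holds this kinase back, and Pho4 with its partner Pho2 activates genes of phosphate transport, phosphate release and phosphate storage. Phosphate is stored in the vacuole as polyphosphate, a chain made by the vacuolar transporter chaperone (VTC) complex. Arsenate resembles phosphate and enters through phosphate transporters, whereas arsenite enters mainly by other routes, among them the aquaglyceroporin Fps1. Yap1, the factor missing from the mutant, activates genes of antioxidant defence and detoxification.

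Each value is the log ratio of the channels of a spot, averaged over the spots of a gene, minus the median over all genes on that array. Here "high side" means above that median and "low side" below it. Neither the direction of the ratio nor the base of the logarithm is given in the sources used here, so no value says which strain held more transcript and no fold change is given. The array medians removed were −2.11, −2.30 and −1.59 on replicates 1, 2 and 3. The deleted gene itself, YAP1 (YML007W), lay at −1.43, −0.22 and −0.74 on the 3 arrays, and averaged −0.80 ± 0.61 (SD, n = 3), with a limma adjusted p of 0.0323, past the threshold of 0.05. It was below the median on 3 of 3 arrays but close to it on replicate 2, so the direction was left unsettled, a choice made with these values in view. The 2 YAP1 spots also disagreed, at −2.02 and −0.85 on replicate 1, −0.68 and 0.24 on replicate 2, and −1.29 and −0.20 on replicate 3. All arrays carried the dyes the same way round, so a dye effect and a difference between strains cannot be told apart. Spot brightness was not analysed here, and the small number of arrays limits the precision.

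Of the 10 genes, 2 passed the test, both on the high side, and both encode subunits of the VTC complex. The test was limma's moderated test of the mean over 3 arrays against 0, two-sided, with Benjamini-Hochberg adjustment over all 5539 genes and a threshold of 0.05. Moderation draws the variance of each gene toward a value pooled over all genes, here with 13.3 prior degrees of freedom. A gene can thus pass although its own 3 arrays spread widely. None of the 10 passed on the low side. Over all genes the call rate was 28.5%, made up of 16.0% high and 12.5% low, so a count of 2 in 10 is close to the background and is not a result about the set. The median of the 10 means was 0.30, against −0.02 over all genes tested. It moved with the processing. With each array block centred on its own median it was 0.15, against −0.06 over all genes. Over all settings centred on a median of genes it ran from 0.14, with a trend on spot scatter removed, to 0.45 without replicate 3.

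The VTC complex supplied the highest values. VTC2 (YFL004W) encodes an accessory subunit with an SPX domain, a fold that binds inositol pyrophosphates. VTC2 lay at 1.29, 1.48 and 1.21 on replicates 1, 2 and 3. Its lowest array thus stood above every array value of PHO5, PHO8, PHO81, PHO84, PHO89, SPL2, VTC3 and VTC4. The mean of VTC2 was 1.33 ± 0.14 (SD, n = 3), with a limma adjusted p of 0.000642 and a 95% interval of 0.84 to 1.82, and the gene ranked 277 of 5539 from the high end. It stood at the 92.6th, 93.6th and 95.1st percentile of the genes on the arrays.

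VTC1 (YER072W) encodes the small membrane subunit of the complex. VTC1 lay at 1.28, 1.05 and 0.56 on the arrays, above the median throughout and lowest on replicate 3. Its mean was 0.96 ± 0.37 (SD, n = 3), with a limma adjusted p of 0.0082, a 95% interval of 0.45 to 1.47 and rank 530. The call of VTC1 did not hold without replicate 3 or from its second spot alone. Without that array the mean was 1.17 with a limma adjusted p of 0.0635. From the second spot it was 0.78 with a limma adjusted p of 0.0573. High calls were also fewer over all genes, at 4.96% without replicate 3 and 11.5% from the second spot, against 16.0% with all arrays and spots. Both VTC1 and VTC2 lay below 0 before the array median was removed, at −1.04 and −0.67, as nearly all genes did.

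VTC4 (YJL012C) encodes the catalytic subunit, which polymerises phosphate from ATP. VTC4 lay at 0.86, 0.41 and 0.20, above the median on every array and nearest to it on replicate 3. Its mean of 0.49 ± 0.33 (SD, n = 3) did not pass (limma adjusted p = 0.133), and the 95% interval ran from −0.01 to 1.00.

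VTC3 (YPL019C) encodes the accessory subunit that takes the place of Vtc2 in another form of the complex. VTC3 lay at −0.73, 1.17 and 0.26, below the median of replicate 1 and far above that of replicate 2. With a mean of 0.23 ± 0.95 (SD, n = 3), it had the largest spread of the 10 genes and did not pass (limma adjusted p = 0.593; 95% interval −0.41 to 0.87). The 2 VTC3 spots lay at −0.72 and −0.75 on replicate 1, at 1.25 and 1.09 on replicate 2, and at 0.02 and 0.49 on replicate 3, so on each array they were closer to each other than the values of replicates 1 and 2 were.

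Set side by side on each array, VTC2 exceeded VTC4 by 0.84 ± 0.35 and VTC1 exceeded VTC4 by 0.47 ± 0.15 (SD, n = 3 each), with the same sign on 3 of 3 arrays. VTC2 exceeded VTC3 by 1.10 ± 0.87 (SD, n = 3), also on 3 of 3 arrays, though by 2.03 on replicate 1 and only 0.31 on replicate 2. VTC1 and VTC2 were closer, with VTC1 lower by 0.01, 0.43 and 0.66 on the arrays, and VTC3 and VTC4 changed order between arrays. These differences were not tested.

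**Figure D1:**
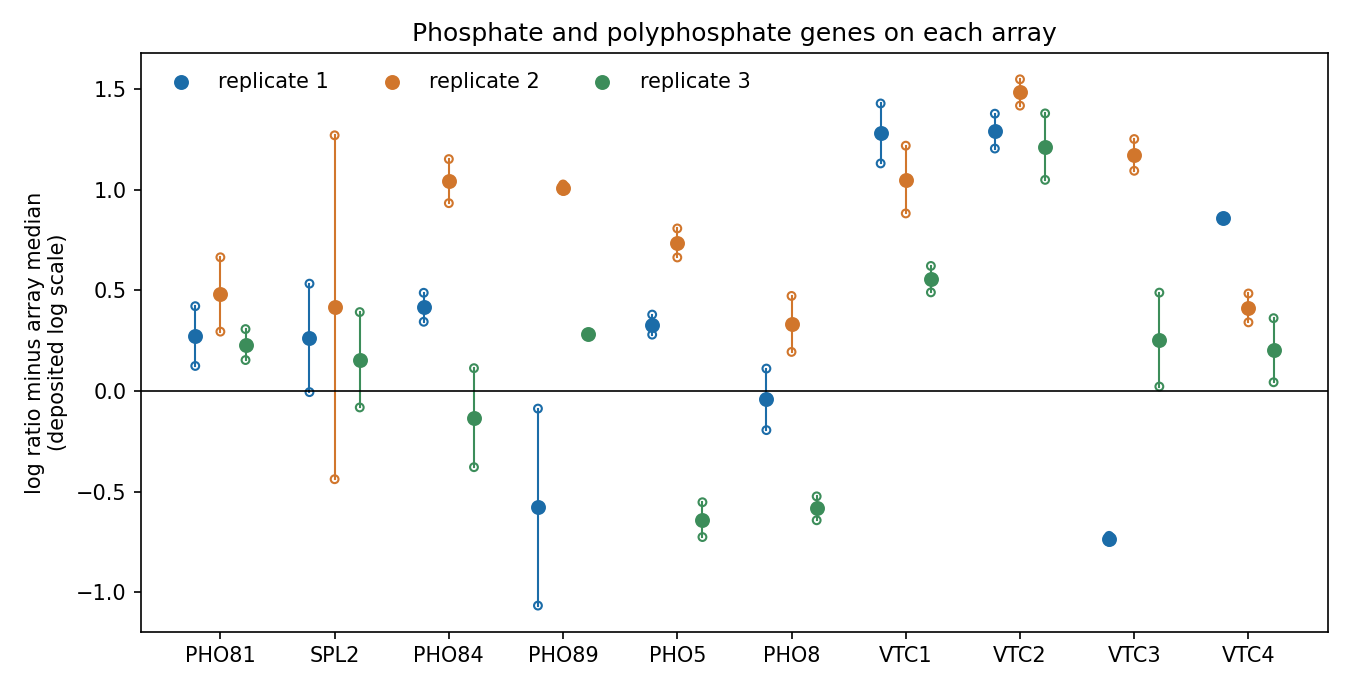
Log ratio minus the array median (y axis, deposited log scale) for each of the 10 genes (x axis) on replicates 1 to 3, with filled points for the gene's value and open points joined by a line for its 2 spots. VTC2 is the gene whose 3 arrays all lie above 1.2, VTC3 and PHO89 lie below 0 on replicate 1 and above 1 on replicate 2, and the 2 spots of SPL2 lie far apart on replicate 2.

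The high-affinity phosphate transporter genes did not pass the test. PHO84 (YML123C) encodes the proton-coupled transporter that is the main entry route for phosphate in starved cells. PHO84 lay at 0.42, 1.04 and −0.13, high on replicate 2 and just below the median on replicate 3. Its mean was 0.44 ± 0.59 (SD, n = 3; limma adjusted p = 0.21), and the 95% interval from −0.11 to 0.99 leaves room for a value as large as that of VTC1. The array block that held PHO84 lay above the array median by 0.27, 0.61 and 0.16 on the 3 arrays, and with each block centred on its own median the mean of PHO84 was 0.10. It was 0.14 without replicate 2 and 0.73 without replicate 3.

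PHO89 (YBR296C) encodes the sodium-coupled transporter, which works in alkaline medium. PHO89 lay at −0.58, 1.01 and 0.28, so it was low on replicate 1 and high on replicate 2. On replicate 1 its spots differed, at −1.07 and −0.09, while on replicates 2 and 3 they nearly coincided. Its mean of 0.24 ± 0.79 (SD, n = 3) did not pass (limma adjusted p = 0.553), and it was −0.15 without replicate 2 and −0.05 with block centring. PHO89 followed VTC3 from array to array, with a difference of 0.01 ± 0.16 (SD, n = 3), a likeness noticed after the values were seen. It was not particular to this pair: PHO81 and SPL2, for example, differed by 0.05 ± 0.04 (SD, n = 3).

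The regulators of the set were steady but close to the median. PHO81 (YGR233C), the kinase inhibitor that relays phosphate starvation to Pho4, lay at 0.27, 0.48 and 0.23. SPL2 (YHR136C), a small protein that restrains low-affinity phosphate uptake, lay at 0.26, 0.42 and 0.15. Both genes were above the median on every array, and their SDs of 0.13 were the smallest of the 10. The means of 0.33 ± 0.13 for PHO81 and 0.28 ± 0.13 for SPL2 (SD, n = 3 each) did not pass, with limma adjusted p-values of 0.299 and 0.383 and 95% intervals of −0.16 to 0.81 and −0.21 to 0.76. For SPL2 the small spread between arrays hid a large one between spots. On replicate 2 its spots lay at −0.44 and 1.27, and the SD between its spots, averaged over arrays, was 0.64 against a median of 0.27 over all genes. Taken from its first spot alone, SPL2 had a mean of −0.01.

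The phosphatase genes had the lowest means of the set, though not the lowest value on every array. PHO5 (YBR093C), the secreted acid phosphatase that frees phosphate outside the cell and the classic reporter of the pathway, lay at 0.33, 0.74 and −0.64. PHO8 (YDR481C), the vacuolar alkaline phosphatase, lay at −0.04, 0.33 and −0.58. Both were highest on replicate 2 and below the median on replicate 3, where PHO5 and PHO8 stood at the 12.5th and 14.2nd percentile. The mean of PHO5 was 0.14 ± 0.71 (SD, n = 3; limma adjusted p = 0.72; 95% interval −0.43 to 0.72). For PHO8 the mean was −0.10 ± 0.46 (SD, n = 3; limma adjusted p = 0.791; 95% interval −0.62 to 0.43), the only one of the 10 below 0. PHO5 turned to −0.16 without replicate 2, and PHO8 to 0.15 without replicate 3. The PHO5 spots agreed closely on each array, with a spot SD of 0.10, the smallest of the set. PHO5 and its neighbour PHO3 are related in sequence, so their spots may share signal and the value of either alone is uncertain.

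**Figure D2:**
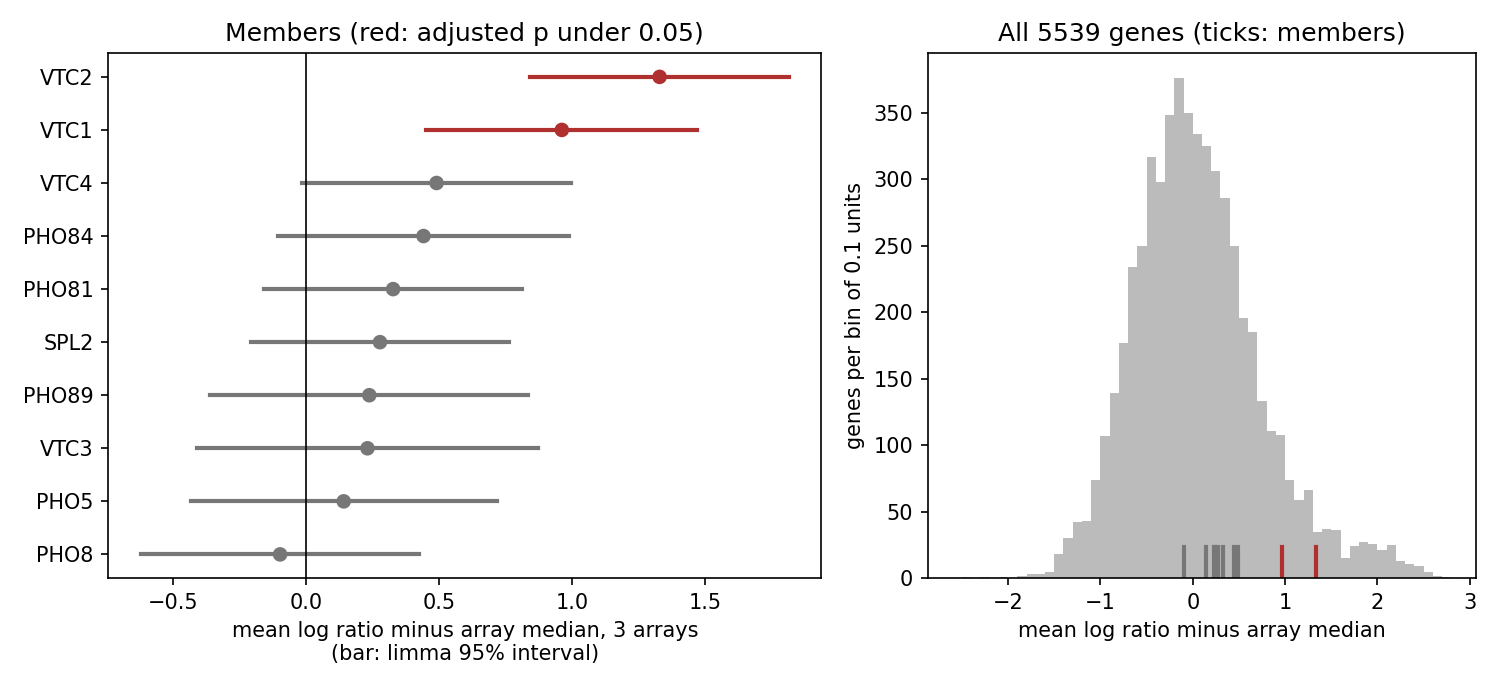
Left, the mean of 3 arrays for each gene (x axis, log ratio minus array median) with its limma 95% interval, in red where the adjusted p was under 0.05; right, the distribution of the means of all genes with ticks for the 10 genes. VTC1 and VTC2 are the red points at 0.96 and 1.33, and the intervals of the other 8 genes include 0.

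Replicate 2 stood apart from the other arrays for these genes. All 10 lay above the median there, from 0.33 (PHO8) to 1.48 (VTC2), with a median of 0.87. On replicates 1 and 3, 7 of the 10 lay above the median, and their medians were 0.30 and 0.22. Which genes fell below it differed, being PHO8, PHO89 and VTC3 on replicate 1 and PHO5, PHO8 and PHO84 on replicate 3. In consequence 5 genes, PHO81, SPL2, VTC1, VTC2 and VTC4, were above the median on every array and 5 were mixed, while none was below on every array. Over all genes, 29.7% were above on every array and 29.2% below. Without replicate 2, the means of PHO5, PHO89 and VTC3 turned to −0.16, −0.15 and −0.24, and the median of the 10 was 0.18.

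Spots of the 10 genes lay in 7 of the 48 blocks of the array. PHO5, PHO8 and VTC3 shared a block whose genes had medians of 0.15, 0.22 and −0.08 on the arrays, and VTC2 shared with VTC4 a block at −0.06, −0.21 and −0.06. With each block centred on its own median, VTC2 stood at 1.44 and VTC1 at 0.71, both still past the threshold, with limma adjusted p-values of 0.000629 and 0.037.

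The signs above hold relative to the array median only. As deposited, with no median removed, all 10 genes lay below 0 and were called low, from −2.10 (PHO8) to −0.67 (VTC2), as were 94.9% of all genes, and the median of the means over all genes was −2.02 in place of −0.02. At 4 of 6 block positions without a gene symbol the spots lay low, and these 192 spot pairs, taken because they were low, gave another reference, while the 2 remaining positions lay near the median and were left out. Against it the 10 genes ran from 0.93 (PHO8) to 2.36 (VTC2) and the median over all genes was 1.01. All 10 were called high, as were 75.3% of all genes, which the choice of low spots fixes in large part and which says nothing about the set. PHO8 was thus the lowest and VTC2 the highest of the 10 under either reference, because a change of reference moves every gene of an array alike.

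**Figure D3:**
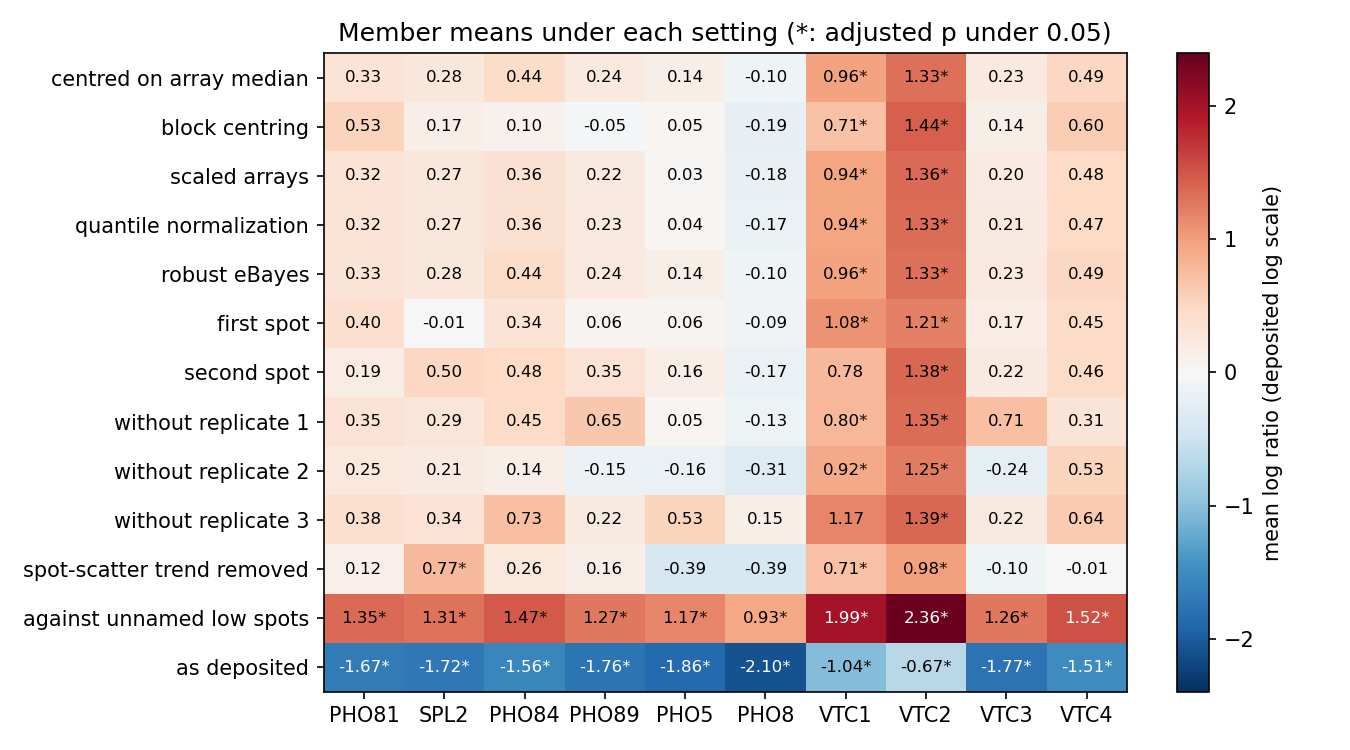
Mean log ratio of each gene (columns) under each way of processing the arrays (rows), coloured from blue (below 0) to red (above 0), with a star where the adjusted p was under 0.05. The VTC2 column stays between 0.98 and 1.44 in every setting centred on a median of genes, the row as deposited is below 0 throughout, and the row against unnamed low spots is above 0 throughout.

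A list of 31 other genes of the pathway was read from the same fit to place these values. All 31 were measured, 1 of them, listed as PHO88, under its present symbol SND3. Of the 31, 2 were called high, 5 were called low and 24 did not pass, and the median of their means was −0.16. Over all genes 16.0% were called high and 12.5% low, as above. None of the 7 calls was made without replicate 3, where 4.96% of all genes were called high and 0.867% low. Without replicate 2 there were 0 high and 4 low calls, against 9.71% and 6.34% of all genes, so calls were fewer over the whole array as well.

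Among the 9 signalling genes, 1 was called high and 2 low. VIP1, an inositol pyrophosphate kinase whose products are phosphate signals, lay at 0.82, 1.32 and 0.46, and averaged 0.87 ± 0.43 (SD, n = 3; limma adjusted p = 0.0158). PHO23, a subunit of the Rpd3L histone deacetylase complex, lay at −1.36, −0.63 and −0.76, and averaged −0.92 ± 0.39 (SD, n = 3; limma adjusted p = 0.0111). PHO92, an RNA-binding protein that reads methylated adenosine, lay at −1.33, −0.81 and −0.62, and averaged −0.92 ± 0.37 (SD, n = 3; limma adjusted p = 0.0106), but its spots scattered widely, with a spot SD of 0.91. These 3 genes kept to one side on all arrays.

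The core of the pathway did not pass. PHO4, the transcription factor, lay at −0.31, −1.60 and −0.29, so its mean of −0.73 ± 0.76 (SD, n = 3; limma adjusted p = 0.0585) rested mostly on replicate 2. On that array the median of the 10 genes was highest, though VTC1 and VTC4 were higher on replicate 1. Its partner PHO2 lay at −0.24, 1.17 and 0.52, and averaged 0.49 ± 0.71 (SD, n = 3; limma adjusted p = 0.189). The kinase gene PHO85 had a mean of −0.57 and the cyclin gene PHO80 a mean of −0.40, with limma adjusted p-values of 0.097 and 0.282 (n = 3 each). These 4 genes were named after their values were seen.

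Of the 6 other phosphatase genes, DIA3, which encodes a protein related to the acid phosphatases, was called on the low side at −0.82, −0.86 and −0.49, and averaged −0.72 ± 0.20 (SD, n = 3; limma adjusted p = 0.0296). The paralogs of PHO5 did not pass. PHO3, the constitutive acid phosphatase gene beside PHO5, lay at 0.43, 1.12 and 0.20 and had a mean of 0.58 ± 0.48 (SD, n = 3; limma adjusted p = 0.0893). PHO11 and PHO12, which are near-identical copies and cannot be separated with confidence by their spots, had means of −0.30 and −0.36. On replicate 2, where PHO3 and PHO5 were at 1.12 and 0.74, PHO11 and PHO12 were at −0.91 and −1.33.

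Among the 7 other genes of transport and trafficking, PHO90 was called on the high side. PHO90 encodes a low-affinity phosphate transporter of the plasma membrane and lay at 0.87, 1.02 and 0.34, and averaged 0.74 ± 0.36 (SD, n = 3; limma adjusted p = 0.0304). Its relatives did not pass: PHO87, the other low-affinity transporter gene of the plasma membrane, had a mean of 0.10 and PHO91, the vacuolar phosphate exporter gene, a mean of 0.21. SND3, a protein of endoplasmic reticulum targeting, was the most divided of the group at 0.92, −1.35 and −1.47.

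None of the 4 other polyphosphate genes passed. PPX1, the cytosolic exopolyphosphatase gene, came closest at 0.82, 0.96 and 0.22, and averaged 0.67 ± 0.39 (SD, n = 3; limma adjusted p = 0.0501). VTC5, a further subunit that stimulates polyphosphate production, lay on the opposite side of the median from VTC1 and VTC2, at −0.38, −0.10 and −0.55, and did not pass either (mean −0.35 ± 0.23 SD, n = 3; limma adjusted p = 0.279). The vacuolar polyphosphatase genes PPN1 and PPN2 had means of −0.41 and −0.16. PPX1, VTC5, PPN1 and PPN2 were named to complete their group. SND3 was named after its values were seen, and SYG1, PHO86 and GTR1 of its group are not described. The glycerophosphodiester genes GIT1 (a transporter, mean 0.30) and GDE1 (a phosphodiesterase, mean 0.08) did not pass.

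Of 3 further phosphate-responsive genes, 2 were called on the low side. PHM7 lay at −1.05, −0.81 and −0.82, and averaged −0.90 ± 0.14 (SD, n = 3; limma adjusted p = 0.00939). CTF19, a kinetochore gene that lies next to VTC3, lay at −1.69, −0.47 and −0.36, and averaged −0.84 ± 0.74 (SD, n = 3; limma adjusted p = 0.0325). The spots of both genes scattered widely, with spot SDs of 0.58 for PHM7 and 0.52 for CTF19 against a median of 0.27 over all genes. CTF19 and VTC3 both had their lowest array in replicate 1 but their means, −0.84 and 0.23, lay on opposite sides of the median.

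**Figure D4:**
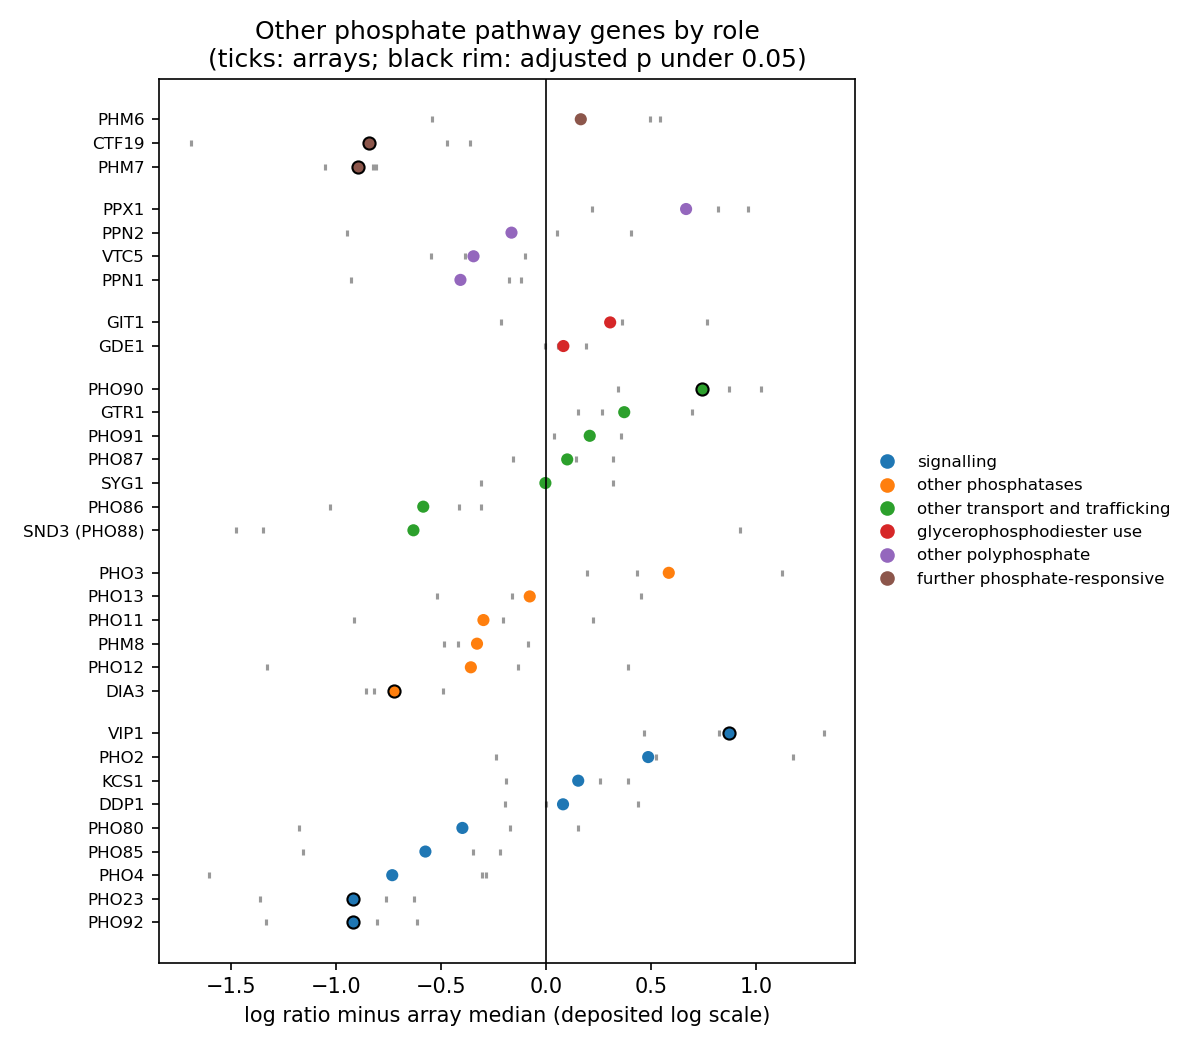
Log ratio minus the array median (x axis) of the 31 other pathway genes (y axis), coloured by role, with points for means, ticks for the 3 arrays and a black rim where the adjusted p was under 0.05. VIP1 and PHO90 are the rimmed points on the high side, and PHO23, PHO92, DIA3, PHM7 and CTF19 those on the low side.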

How the data were processed

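The deposited table gives 1 log ratio for each of 13056 spots and 3 arrays, treated as log2 because its range is too wide for log10; the base, the direction and what the authors did to the scanner values before they deposited these ratios, log2 or natural log, are not given in the sources used here. Of the spots, 11138 had 1 gene symbol in the platform annotation, 0 had several and 1918 had none. Symbols were matched to the RefSeq gene table, assembly R64 (5534 of 5539), for locus names, synonyms and gene order only. Spots of a gene were averaged, the median over genes was taken off every array, and the mean was tested with limma 3.58.1 in R 4.3.3 (lmFit with an intercept, eBayes). The procedure was tested on simulated data that followed limma's own variance model. Those data had no block, dye or spot effects, so that test cannot show how the procedure handles them. The 10 genes, the pathway lists and the unnamed low spots were chosen with earlier results of these data known. Named beyond the 10 were every called gene of the pathway list and the paralogs of PHO5 and of the transporters, with exceptions given where they appear. Alternatives covered centring, scaling, spots, variance model and each array left out. No sequences were used here.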

Additional observations from a re-analysis of the deposited data

How the results depend on the processing

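The test was already paired, because each log ratio compares the 2 strains on the same array, and there is 1 group of arrays. Scaling the arrays, quantile normalization and robust variance estimation changed no call among the 10 genes. VTC2 stayed past the threshold on the high side in every setting centred on a median of genes (0.98 to 1.44), and VTC1 in all of those except without replicate 3 (1.17) and from the second spot (0.78). The number of the 10 called high was 2, with 1 from the second spot (11.5% of all genes called high), 1 to 2 when an array was left out (4.96% of all genes without replicate 3), 0 as deposited (0.0361%) and 10 against the unnamed low spots (75.3%). The number called low was 0, and 10 as deposited (94.9%). As deposited the means were −1.86 (PHO5), −1.67 (PHO81), −1.56 (PHO84), −1.76 (PHO89), −1.72 (SPL2), −1.04 (VTC1), −0.67 (VTC2), −1.77 (VTC3) and −1.51 (VTC4). Against the unnamed low spots PHO8 was at 0.93. Other changes of sign were in genes that had not passed: PHO89 (−0.051) with block centring, SPL2 (−0.0074) from the first spot, PHO5 (−0.16), PHO89 (−0.15) and VTC3 (−0.24) without replicate 2, and PHO8 (0.15) without replicate 3. Over the arrays left out, PHO5 ran from −0.16 to 0.53, PHO8 from −0.31 to 0.15, PHO84 from 0.14 to 0.73, PHO89 from −0.15 to 0.65, VTC3 from −0.24 to 0.71 and VTC4 from 0.31 to 0.64. With the trend of the ratio on spot scatter removed, chosen after seeing the data, PHO5 was at −0.39, VTC3 at −0.10 and VTC4 at −0.0076. In that setting SPL2, whose spots disagreed, passed at 0.77 (limma adjusted p = 0.0345). This made 3 of the 10 genes called high, where 11.2% of all genes were called high. Of the 31 other pathway genes, 2 were called high (0 as deposited, 22 against the unnamed spots, 1 each with block centring, the first spot and the second spot, 3 with robust variance estimation, 0 to 2 with an array left out) and 5 low (31 as deposited, 0 against the unnamed spots, 5, 3 and 4 with block centring, the first spot and the second spot, 0 to 4 with an array left out). The counts of 22 and 31 stand beside the same 75.3% and 94.9% of all genes. The shares of all genes called high were 14.5% with block centring, 10.9% and 11.5% from the first and second spot, and 16.5% with robust variance estimation. Called low were 12.2% with block centring, and 7.46% and 9.12% from the first and second spot. Without replicates 1, 2 and 3 in turn, 14.9%, 9.71% and 4.96% were called high and 11.1%, 6.34% and 0.867% low. The cause of these changes was not tested beyond what the change of reference itself does. How far each spot stood above its background was not analysed here.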
